A study of Danio rerio with 3 samples.

Results

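The genes described here encode the proteasome, its activators and the factors that assemble it, in whole zebrafish embryos exposed to Aroclor 1254, a commercial mixture of polychlorinated biphenyls. They were taken by symbol, as every gene of the array's gene table starting with psma, psmb, psmc, psmd, psme, psmf or psmg. This gave 53 of 14462 genes, on 67 of 21060 probes with a gene. Of these, 41 had a value in all 3 samples, 2 in only some samples and 10 in none.

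Each of the 3 samples compared exposed with control embryos on two-channel arrays, with dye swaps in the design. How many hybridizations stand behind a deposited value is not given in the sources used here. Exposed embryos received 71.9 mg/L Aroclor 1254 from 24 hpf (hours post fertilization) for 24 h and were collected at 48 hpf, and control embryos stayed in medium at 28.5 °C. The labels name no strain, genotype or clutch, so p-values reach no further than the spread between these 3 samples. In limma the variance of each gene is also drawn toward that of all genes. Values are log ratios of the 2 channels, read as log2. The condition in the numerator is not given in the sources used here, so each sign is that of the deposited value, and which embryos had more of a transcript is left unsaid.

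The proteasome degrades proteins that carry ubiquitin chains. Its barrel-shaped core particle stacks rings of alpha subunits, which gate the entrance, around rings of beta subunits, some of which cut the substrate. A regulatory particle caps the core. Its base holds a ring of ATPases that unfold the substrate, and its lid carries the enzyme that removes the ubiquitin chain. Immune cells and some tissues replace the cutting subunits by inducible forms. When proteasome activity is short, mammalian cells raise the transcription of many subunit genes together through the factor NFE2L1.

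Replicates 1, 2 and 3 held values for 12735, 10487 and 12062 rows. The standard deviation of the gene ratios was 0.80, 0.92 and 0.52 in the same order, so replicate 2 was the widest. The gene cyp1a, the standard marker of the aryl hydrocarbon receptor, was positive in each sample, at 7.07, 8.61 and 8.02. Of 18 tissue markers on the array for muscle, blood, nerve, hatching gland, lens and liver, 17 had a value, all but the liver marker fabp10a. Rows were matched to genes by a grid position worked out from the values themselves, and every gene name depends on it. Under it 80.6% of the 67 proteasome probes had a value in at least 1 sample, against 45.4% of all probes with a gene. With the row numbers as given the shares were 32.8% and 28.7%. These shares, the cyp1a ratios and the marker count come from the values that gave the grid, so they are no independent check of it.

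Which proteasome genes had a value differed by role. All 7 constitutive beta genes (psmb1 to psmb7) and all 11 base genes were measured in every sample, as were 9 of 10 alpha genes and 6 of 7 lid genes. None of the 6 inducible or tissue-specific beta genes was, each with 1 probe. Of the 14462 genes on the array, 5904 were measured in every sample. A count of none over 6 genes says little beside that share. No value was present for psmb8a and psmb9a, the inducible counterparts of cutting subunits in cells that present antigens, or for psmb11a, the counterpart used in the thymus of mammals. The beta genes psmb12 and psmb13a had none either. In the RefSeq table of the GRCz12tu assembly, psmb13a, psmb8a, psmb12 and psmb9a follow each other with no other protein-coding gene between them. The gene psmb11a stands next to the constitutive psmb5 there, which was measured in all samples. The inducible psmb10 had a ratio of -0.19 in replicate 1 and -0.92 in replicate 3 and none in replicate 2.

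The genes psme1 and psme2 encode the activator that in mammals interferon induces together with the inducible subunits. Neither had a value, while psme3, their nuclear relative, was measured on all 3 of its probes. Among markers of immune cells and antigen presentation, lcp1, coro1a and 1 of 4 mpx probes had values. The antigen presentation genes tap2a and b2m had none. The remaining unmeasured genes were the alpha gene psma6l, the lid gene psmd11b and the assembly chaperone psmg1, and the base chaperone psmd5 had a value of 0.16 in replicate 3 only. Why a row lacks a value is not given in the sources used here. In whole embryos, fewer cells of a type and less RNA per cell cannot be told apart.

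**Figure D1:**
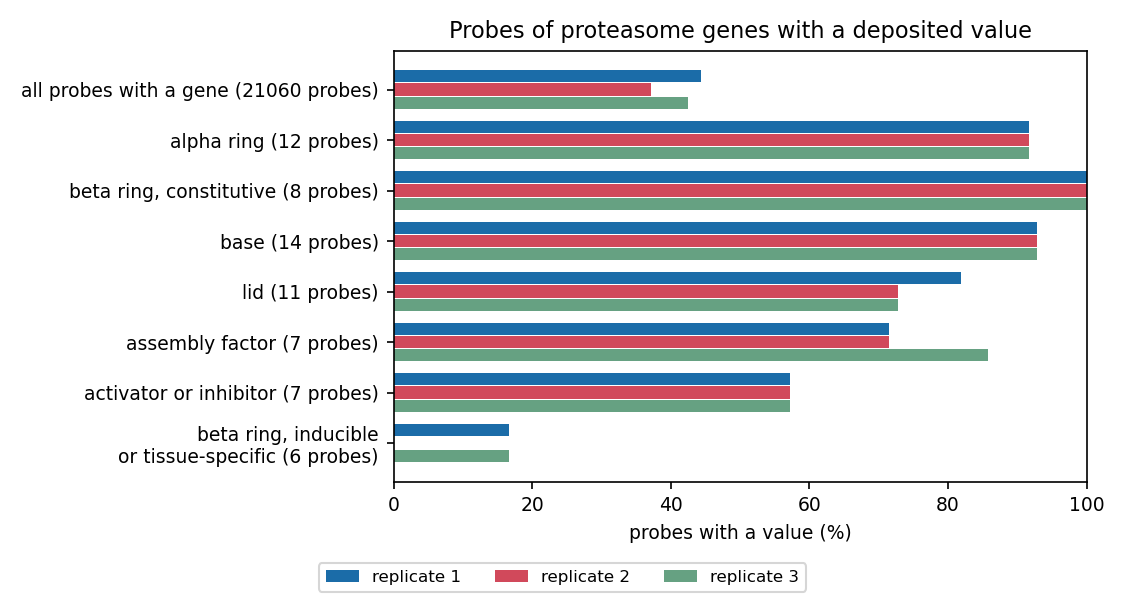
Share of probes with a deposited value (%, horizontal axis) by role of the gene and by replicate (colours), with all probes that have a gene in the top row. The constitutive beta genes reached 100% of 8 probes in each replicate, and the inducible or tissue-specific beta genes 16.7%, 0% and 16.7% of 6.

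Across the 41 genes measured in all samples, the ratios lay around 0 in replicates 1 and 3 and were negative in replicate 2. The median was -0.04, -0.85 and -0.03 in replicates 1, 2 and 3, beside -0.01, -0.03 and -0.05 over all 5904 genes measured in all samples. Below 0 in replicate 2 were 35 of the 41, against 3022 of all 5904 genes. In replicate 2, 18 of the 41 stood at or below -1, that is 2-fold, against 11.7% of all genes. In replicate 1 it was 1 of 41 (9.13% of all genes) and in replicate 3 none (2.88%). Replicate 2 was the lowest of the 3 samples for 33 of 41 genes, against 37.4% of all genes. The lowest ratios in this sample belonged to the base scaffold psmd2 at -2.08 and the ubiquitin receptor psmd4a at -1.98. The psmd4a value averages 2 probes that lay apart, at -2.60 and -1.37.

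**Figure D2:**
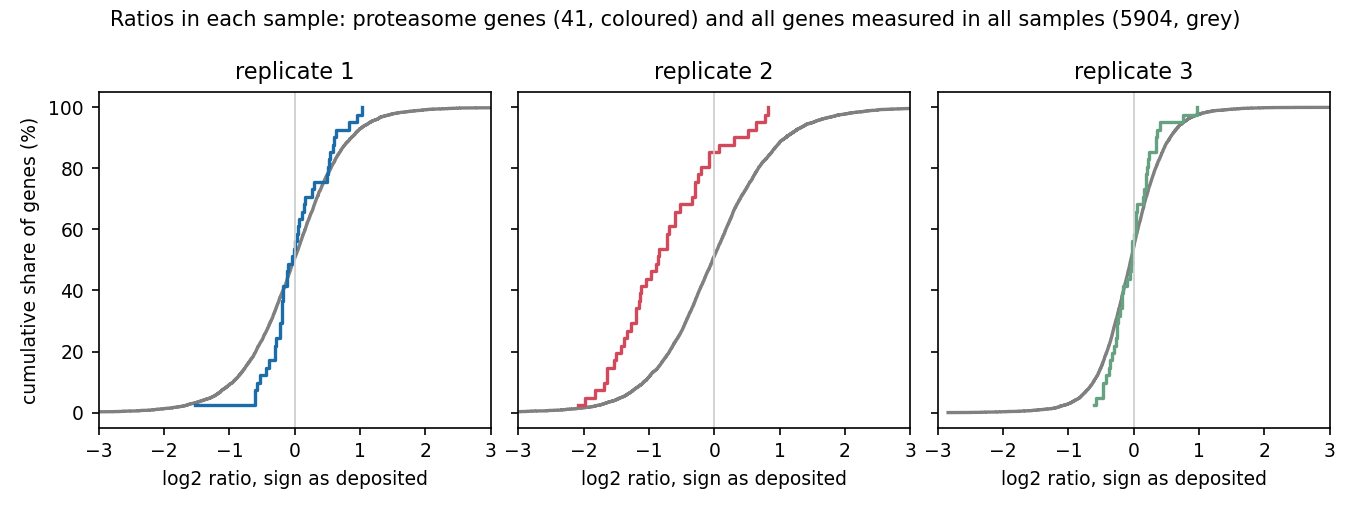
Cumulative share of genes (%, vertical axis) by log2 ratio with the sign as deposited (horizontal axis, cut at 3 either side), for the 41 proteasome genes (coloured) and all 5904 genes (grey) in each replicate. The proteasome curve lies left of the grey curve in replicate 2, with medians of -0.85 and -0.03, and crosses it near 0 in replicates 1 and 3.

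No proteasome gene passed an adjusted p of 0.05 in limma over all genes, where 0.0169% of genes, cyp1a alone, did. The adjusted p of the 41 ran from 0.249 to 0.966. At an unadjusted p of 0.05, 3 of 41 passed (16.1% of all genes), all with negative means (8.43% of all genes had that p and a negative mean). Of the 41 genes, 15 were negative in all 3 samples against 23.1% of all genes, and 3 were positive against 19.7%. None reached 1.5-fold with 1 direction in every sample, as 5.34% of all genes did. Without replicate 2, 16 of the 41 were negative in both other samples, against 35.7% of all genes. The median of the means was -0.37 with replicate 2 and -0.10 without it.

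**Figure D3:**
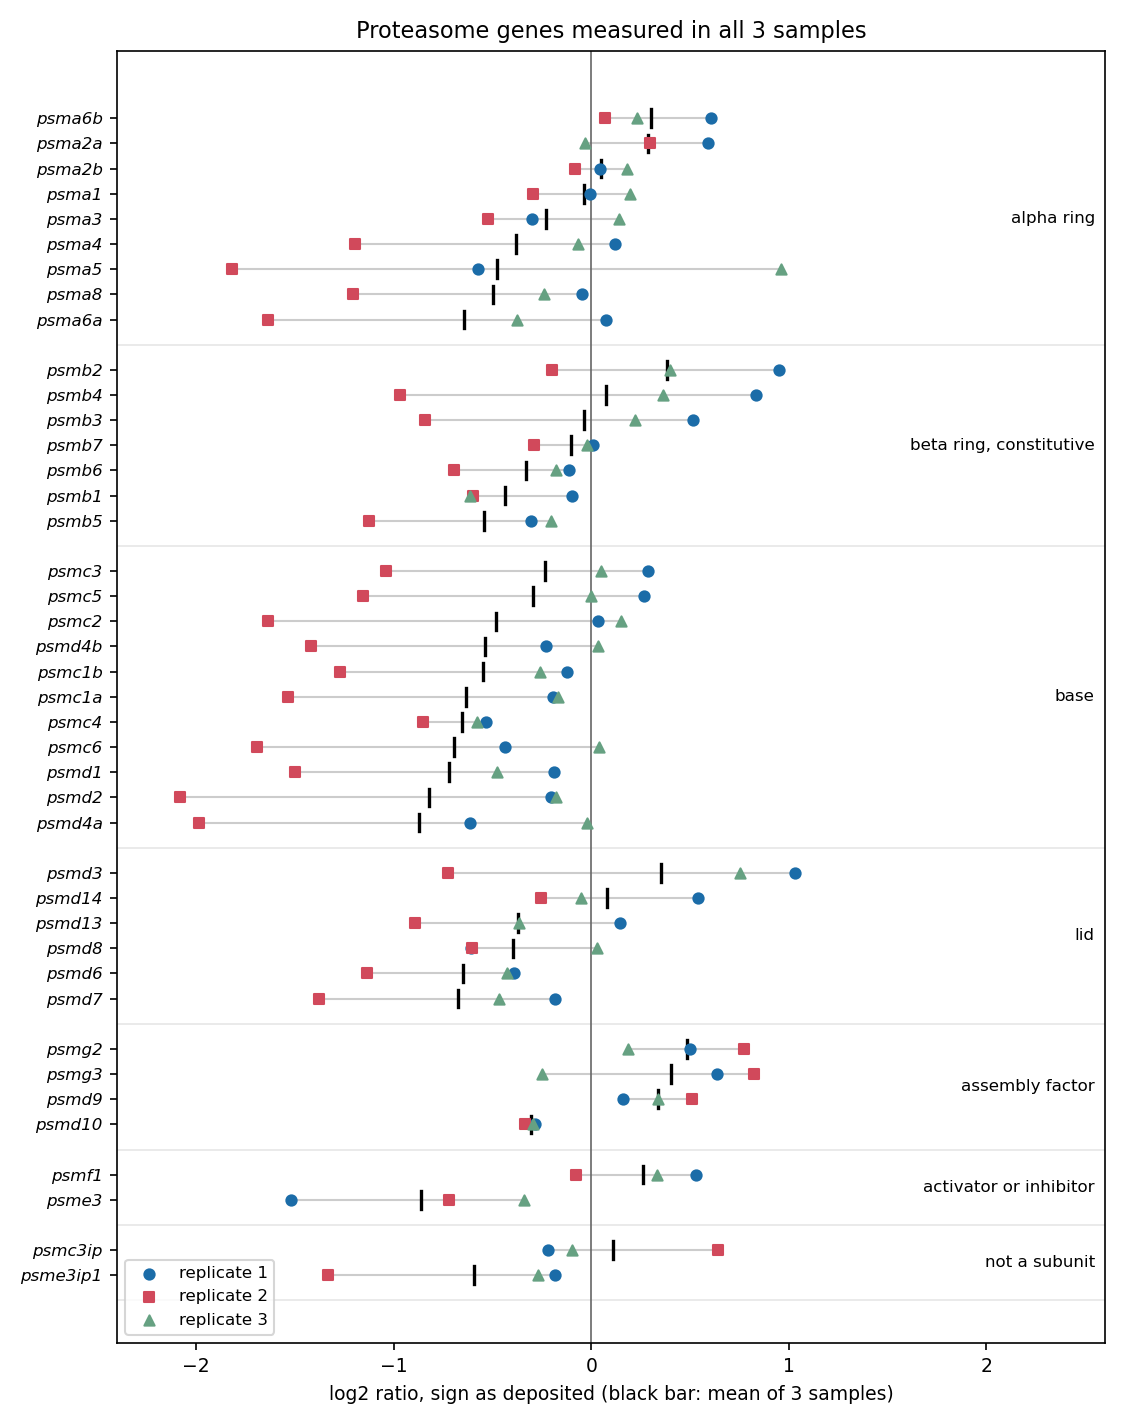
Log2 ratio with the sign as deposited (horizontal axis) of each of the 41 genes measured in all samples, grouped by role. Symbols are the 3 replicates, grey lines their range and black bars their mean. The replicate 2 square is the leftmost symbol for 33 genes and lies right of the others for psmg2, psmg3, psmd9 and psmc3ip.

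The 11 base genes had the lowest median of means of any part of the complex, at -0.63. Without replicate 2 it was -0.19 and no longer the lowest, beside -0.20 in the lid and -0.25 in the activators. All 11 were below 0 in replicate 2 and 10 of them at or below -1, with a median of -1.50 and a range from -2.08 to -0.85. Of all 5904 genes, 3022 were below 0 and 11.7% at or below -1 in that sample. In replicates 1 and 3 the base median was -0.20 and -0.02. The 3 lowest means belonged to genes that are no ATPase. The ubiquitin receptor psmd4a stood at -0.61, -1.98 and -0.02 in replicates 1, 2 and 3 (mean -0.87 ± 1.01; SD, n = 3). The scaffold psmd2 read -0.20, -2.08 and -0.18 (-0.82 ± 1.09), and its partner scaffold psmd1 -0.19, -1.50 and -0.48 (-0.72 ± 0.69). Without replicate 2 these means were -0.32, -0.19 and -0.33.

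Among the ATPases, which form the unfolding ring, psmc4 had the lowest spread between samples. It was negative in every sample, at -0.53, -0.85 and -0.58 (mean -0.65 ± 0.17; SD, n = 3; adjusted p = 0.261, limma), and stood at -0.56 without replicate 2. The other ATPases spread more widely. The values of psmc1a were -0.20, -1.53 and -0.17 (-0.63 ± 0.78), and those of psmc1b -0.12, -1.27 and -0.26 (-0.55 ± 0.63). Without replicate 2 both means were near -0.2, at -0.18 and -0.19. The highest base gene was psmc3, at 0.29, -1.04 and 0.05 (-0.23 ± 0.71), whose mean turned to 0.17 without replicate 2. The remaining base genes had mixed signs. Means of psmc2 and psmc5 were -0.48 and -0.30 and turned to 0.093 and 0.13 without replicate 2. Those of psmc6 and psmd4b were -0.70 and -0.54, and -0.20 and -0.10 without it.

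The 6 measured lid genes had medians of -0.02, -0.81 and -0.21 in replicates 1, 2 and 3. All 6 were below 0 in replicate 2, as were 3022 of all 5904 genes, but in replicate 1 they spread from -0.61 to 1.03. The structural subunit psmd6 was negative in all samples, at -0.39, -1.13 and -0.42 (mean -0.65 ± 0.42; SD, n = 3; adjusted p = 0.308, limma), and at -0.41 without replicate 2. So was psmd7, the partner of the deubiquitinating subunit, at -0.18, -1.38 and -0.47 (-0.68 ± 0.62), with a mean of -0.32 without replicate 2. The deubiquitinating enzyme psmd14 itself had a mean of 0.08, which turned to -0.15 without replicate 1. At the other end psmd3, a structural subunit, was positive in 2 samples and negative in replicate 2, at 1.03, -0.73 and 0.75 (0.35 ± 0.95). Its mean was 0.014, 0.89 and 0.15 without replicates 1, 2 and 3. The other lid genes, psmd8 and psmd13, had means of -0.39 and -0.37, and of -0.29 and -0.11 without replicate 2. A psmd8 probe had a value in replicate 1 only.

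The 16 measured core genes had a median of means of -0.16, against -0.63 in the base. The core median was 0.03, -0.64 and 0.06 in replicates 1, 2 and 3, and that of the base -0.20, -1.50 and -0.02, so the base median was the lower in each sample. Single core and base genes overlapped in all 3 samples. In replicate 2 the core ran from -1.82 to 0.30, and 5 of its 16 genes were at or below -1, against 11.7% of all genes. Without replicate 2 the median of the core means was 0.06, against -0.16 with it.

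Among beta genes the cutting subunits had small negative means. The chymotrypsin-like subunit psmb5 read -0.31, -1.12 and -0.21 (mean -0.54 ± 0.50; SD, n = 3), and -0.26 without replicate 2. The caspase-like subunit psmb6 was at -0.11, -0.69 and -0.18 (-0.33 ± 0.32), and -0.15 without replicate 2. The trypsin-like psmb7 had a mean of -0.10 ± 0.16. Of the structural beta genes, psmb1 was negative in every sample, at -0.10, -0.60 and -0.61 (-0.44 ± 0.29), and at -0.35 without replicate 2. The genes psmb2, psmb3 and psmb4 were positive in replicates 1 and 3 and negative in replicate 2. Means of psmb3 and psmb4 were -0.04 and 0.08, and 0.37 and 0.60 without replicate 2. The highest of them, psmb2, stood at 0.95, -0.20 and 0.40 (0.38 ± 0.58). Its mean was 0.10, 0.68 and 0.38 without replicates 1, 2 and 3.

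The alpha genes, which form the gate of the core, had the widest spread in replicate 2, from -1.82 for psma5 to 0.30 for psma2a. The lowest mean was that of psma6a, at 0.07, -1.64 and -0.37 (-0.65 ± 0.89; SD, n = 3), which was -0.15 without replicate 2. Negative in all samples was psma8, at -0.04, -1.20 and -0.24 (-0.50 ± 0.62; -0.14 without replicate 2). The 1 alpha gene positive in all samples was psma6b, at 0.61, 0.07 and 0.23 (0.30 ± 0.28; 0.15 without replicate 1, 0.42 without replicate 2). Means of psma1, psma2a, psma2b, psma3, psma4 and psma5 lay between -0.48 and 0.29 with mixed signs. Without replicate 2 the mean of psma5 turned from -0.48 to 0.19, that of psma4 from -0.38 to 0.027 and that of psma1 from -0.04 to 0.094.

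**Figure D4:**
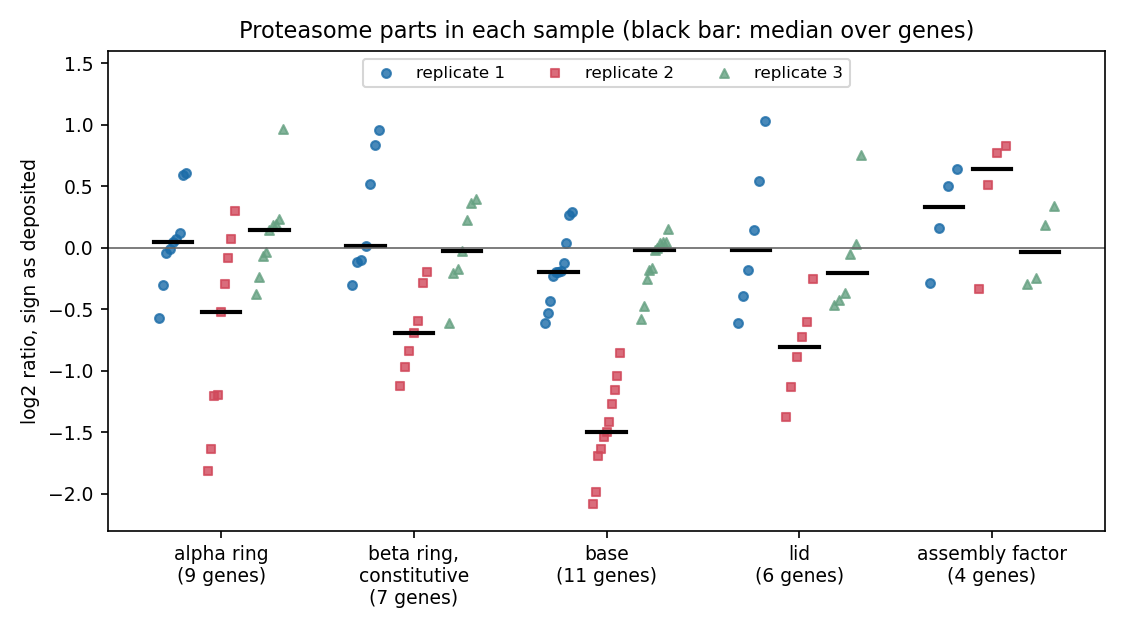
Log2 ratio with the sign as deposited (vertical axis) of the genes of each part of the proteasome in replicates 1, 2 and 3 (colours and symbols), with the median over genes as a black bar. In replicate 2 the medians ran from -1.50 in the base to 0.64 in the assembly factors.

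The assembly factors, chaperones that put the particle together and then leave it, were positive in replicate 2 in 3 of 4 measured genes. Of all 5904 genes, 3022 were below 0 in that sample, and a count over 4 genes says little beside this. The core assembly factor pomp, which the symbol rule does not take, was at -0.62 there. Medians of the 4 genes were 0.33, 0.64 and -0.03 in replicates 1, 2 and 3. The core chaperone psmg2 was positive in all samples, at 0.50, 0.77 and 0.19 (mean 0.49 ± 0.29; SD, n = 3; adjusted p = 0.375, limma). Its relative psmg3 read 0.63, 0.83 and -0.25 (0.40 ± 0.57; 0.19 without replicate 2, 0.73 without replicate 3). The base chaperone psmd9 was also positive throughout, at 0.16, 0.51 and 0.34 (0.34 ± 0.17). By contrast psmd10, the base chaperone known as gankyrin, was negative with little spread between samples, at -0.29, -0.33 and -0.30 (-0.30 ± 0.03; adjusted p = 0.528, limma). The standard error behind that p was 0.23, drawn toward that of all genes, so the p does not reflect the small spread. In replicate 2 the assembly factors ran from -0.33 to 0.83, or from -0.62 with pomp, and the base genes from -2.08 to -0.85. Of all genes, 11.7% were at or below -1 in that sample. In replicates 1 and 3 the ranges of the 2 groups overlapped. Without replicate 2 the median of the assembly factor means was 0.22, against 0.37 with it.

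Of the activators and inhibitors, psme3 had the smallest unadjusted p of all proteasome genes (0.0262, limma). This nuclear cap lets proteins enter the core without ubiquitin. Its ratios were -1.52, -0.72 and -0.34 (mean -0.86 ± 0.60; SD, n = 3; adjusted p = 0.249, limma), so its lowest sample was replicate 1, not 2. The mean was -0.53 without replicate 1 and -0.93 without replicate 2. The regulator psmf1, which inhibits the core in vitro, stood at 0.53, -0.07 and 0.34 (0.26 ± 0.31; 0.13 without replicate 1, 0.43 without replicate 2).

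The symbol rule also took 2 genes that are no proteasome subunits. The gene psme3ip1, whose product binds the psme3 protein, read -0.18, -1.34 and -0.27 (-0.59 ± 0.64; SD, n = 3; -0.22 without replicate 2). The meiotic recombination factor psmc3ip was at -0.22, 0.64 and -0.10 (0.11 ± 0.47), and its mean turned to -0.16 without replicate 2. Leaving both out kept the median of the means at -0.37 over 39 genes.

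Zebrafish kept duplicated copies of several subunit genes, and 4 such pairs were measured. The copies psmc1a and psmc1b had close ratios, differing by -0.08 ± 0.18 (SD, n = 3; psmc1a minus psmc1b). Those of psma6 differed more: psma6a was lower than psma6b in 3 of 3 samples, by -0.54, -1.71 and -0.61. The mean difference was -0.95 ± 0.66 (SD, n = 3). Its exact 2-sided sign permutation p of 0.25 (0.5 adjusted over the 4 pairs) is the smallest that 3 samples allow. The copy psmd4a was lower than psmd4b in 3 of 3 samples by -0.33 ± 0.26 (exact p = 0.25, adjusted 0.5), and psma2a differed from psma2b by 0.24 ± 0.40 (exact p = 0.5, adjusted 0.667). The order of the psmd4 copies depended on the probes. With 1 row a gene the means were -0.61 for psmd4a and -0.71 for psmd4b, so psmd4b was the lower. Copies of close sequence can share signal on their probes.

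Where a gene had several probes measured in all samples, their means lay apart by 0.06 (psmd8) to 0.52 (psmd4a). The 3 psme3 probes had means between -0.95 and -0.79, and the 2 psmd7 probes -0.82 and -0.53. In single samples probes could differ more. In replicate 3 the psme3 probes read -0.86, -0.22 and 0.06, so not every probe of the gene was negative there. The psmd4a probes read -0.30 and 0.26 in that replicate. The gene psmd4a, counted as negative in all samples, was thus negative there only as their average, at -0.02. The 2 psmb4 probes, at -0.02 and 0.17, differed by less than the spread of the gene between samples (SD 0.94). For psmd10 the probes stood at -0.50 and -0.11, a gap of 0.39 that the SD of 0.03 between samples does not show. The gap was 0.52 for psmd4a, 0.40 for psma2a, 0.34 for psmd4b and 0.29 for psmd7.

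Other genes that act with the proteasome were read from a list of 60 symbols, of which 41 are on the array and 35 were measured in all samples. None of them passed the adjusted threshold. At an unadjusted p of 0.05, 4 of 35 passed (16.1% of all genes), each with a negative mean (8.43% of all genes). In all samples 14 of 35 were negative and 5 positive, against 23.1% and 19.7% of all genes. The list's median of means was -0.23, with -0.20, -0.55 and 0.03 in replicates 1, 2 and 3. The 4 with the smallest p were nsfl1c, a cofactor of the unfoldase vcp (-1.51 ± 0.98), the deubiquitinase usp5 (-0.76 ± 0.04), the chaperone bag6 (-0.77 ± 0.24) and ddi2 (-0.73 ± 0.26; SD, n = 3 each). In limma the adjusted p of these 4 genes lay between 0.195 and 0.239. In mammals the ddi2 protease activates NFE2L1. The genes nfe2l1a and nfe2l1b were on the list but not among the 35 measured in all samples. The unfoldase vcp read -0.42, -1.65 and -0.01. The core assembly factor pomp read 1.30, -0.62 and 0.52, and the lid subunit sem1, which the symbol rule does not take, -0.26, -0.52 and 0.17. These 3 are named for their roles, after their values were seen.

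Other gene groups are set beside these values by replicate. The 70 measured cytosolic ribosomal protein genes had medians of 0.07, 0.88 and -0.11 in replicates 1, 2 and 3, of the opposite sign to the proteasome in replicate 2. The 7 measured subunits of the cytosolic chaperonin had medians of -0.40, -0.34 and 0.17, so there the median of replicate 3 was the one apart. Single subunits did not all follow it. Replicate 2 was the lowest sample for 3 of the 7, and cct4 was lowest in replicate 3, at -0.48, -0.49 and -0.61. Tissue markers were mixed. The 3 erythroid markers lay between 0.96 and 1.72 in replicate 2 and between -0.42 and 0.60 in the others. Of the 4 neural markers, elavl4 and stmn1b were lowest in replicate 2, at -1.40 and -1.29, while elavl3 was highest there at 0.11 and gfap, at -0.35, lay between its other samples. The 4 skeletal muscle markers ran from -1.77 to 0.48 in replicate 1, -1.62 to -0.18 in replicate 2 and -1.15 to 0.67 in replicate 3. The hatching enzyme genes he1.1 and he1.2 were at 4.05 and 3.83 in replicate 2, 2.74 and 2.34 in replicate 1 and -0.15 and -0.16 in replicate 3. The third measured marker of that gland, cd63, was lowest in replicate 2, at 0.63, 0.05 and 0.76. The lens marker cryaa read 0.74, -0.63 and -1.95 in replicates 1, 2 and 3, and cryba2a 1.385, -0.68 and -0.50. The liver marker tfa was at -0.78, 0.61 and 0.38. The part of tissue makeup or stage in the proteasome ratios was not tested. With the local median around each spot removed, a step chosen after seeing the data, the proteasome median in replicate 2 was -0.87, against -0.85 before. The part of array position in the ratios was not tested.

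Genes of a sample share its array and are no replicates of each other. As a description over the 41 genes, Pearson's r was 0.417 for replicates 1 and 2, 0.417 for replicates 1 and 3 and 0.154 for replicates 2 and 3. Over all 5904 genes it was 0.289, 0.469 and 0.301.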

How the data were processed

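The authors deposited 1 table with a row number and a log ratio per sample. Its unit was taken as a log2 ratio from the deposited values, which are signed and centred near 0. The natural logarithm cannot be told apart from it, and folds assume log2. The sources used here give neither the background correction and normalization nor how the dye swap was combined. Rows were paired with genes by the grid renumbering of the array described in the report, which was inferred after the values were seen. All 53 gene IDs were found under the same symbol in the RefSeq gene table of GRCz12tu.

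A gene's measured rows were averaged in each sample. The 5904 genes measured in all 3 samples were tested against 0 with limma 3.58.1 (R 4.3.3) as a model with an intercept alone, using lmFit and eBayes, 2-sided, with Benjamini-Hochberg adjustment over all of them. The eBayes step draws the variance of each gene toward that of all genes, here with 4.58 prior and 2 residual degrees of freedom. The script was tested on simulated data. Medians over gene groups are descriptions and have no test. Alternatives were other scalings, centring, row averaging and row numbers, array weights, the ordinary statistic and leaving out each replicate. With no array signal analysed here, precision is limited by the number of samples.

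The genes, lists and roles were chosen with earlier results of these data known. Values in every sample are given for genes of 1 sign in all samples, for the lowest and highest gene of each role and for the activators. No sequence is shown, since the tables used here hold none, and the planned motif search of promoters was not run.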

Additional observations from a re-analysis of the deposited data

How the results depend on the processing

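No proteasome gene passed in any of the 14 alternative fits. The lowest adjusted p in limma was 0.184, for psmf1 with the row numbers as given, which pair the symbols with other rows. Under the grid it was 0.185 in limma, for psme3 after quantile normalization. The number of genes passing over all genes was 1 in the reported fit, 37 after equal scaling, 33 after quantile normalization, 40 with array weights, 0 with the ordinary statistic (605 at an unadjusted p of 0.05), 8 with the row numbers as given and 1 to 20 with 1 replicate left out (20 without replicate 3). Proteasome genes positive in all samples numbered 3 in the reported fit, 3 to 11 with 1 replicate left out, where fewer samples had to share a sign (11 without replicate 2, 5 without replicate 3), and 7 with the position trend removed. Genes negative in all samples numbered 17 to 21 with 1 replicate left out (17 of 42 without replicate 2, psmb10 included), against 15. Of all genes, 35.7% were negative in both replicates 1 and 3, against 23.1% in all 3 samples. The shares over all genes in the other settings were not counted, so no change is read from these counts.

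With the row numbers as given, which pair the symbols with other rows, 17 genes were measured, 1 negative and 8 positive in all samples. Their median was 0.29, and that of the core 0.40, the base 0.37, the lid 0.42, the activators 0.48 and the single assembly factor -0.99. In the other 12 settings each of these 6 medians moved by less than the standard deviation between samples. That limit is loose, since leaving out 1 of 3 samples can hardly move a mean beyond it. These settings leave out array weights and the ordinary statistic, for which no medians were taken. The array weights were 0.99, 0.47 and 2.15 for replicates 1, 2 and 3. With them the base genes psmd4a, psmd2 and psmd1 had means of -0.44, -0.43 and -0.53, against -0.87, -0.82 and -0.72 in the reported fit. Without replicate 2 the base median went from -0.63 to -0.19. That of the core turned from -0.16 to 0.027 (psmb10 included). The median over all proteasome genes was -0.50, -0.10 and -0.41 without replicates 1, 2 and 3. In replicate 2 it was -0.71 after equal scaling and -0.67 after quantile normalization.

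Of 533 values of the 41 genes in 13 settings, none passed the threshold, 511 kept their direction and 22 turned. Without replicate 2, 8 genes turned: psma1 (0.094), psma4 (0.027), psma5 (0.19), psmb3 (0.37), psmc2 (0.093), psmc3 (0.17), psmc5 (0.13) and psmc3ip (-0.16). Over the replicates left out, the means of these genes ran from -0.15 to 0.094, -0.63 to 0.027, -1.20 to 0.19, -0.31 to 0.37, -0.80 to 0.093, -0.50 to 0.17, -0.58 to 0.13 and -0.16 to 0.27. Those of psmb4 (-0.30 to 0.60), psmd14 (-0.15 to 0.25) and psma2b (-0.019 to 0.11) also changed sign. The others that turned were psmb3 (0.031 after equal scaling, 0.014 after quantile normalization, 0.17 with array weights, 0.17 with the position trend removed), psma1 (0.00045 after equal scaling, 0.076 with array weights), psma5 (0.18) and psmc3ip (-0.035) with array weights, psma2b (-0.031 with 1 row a gene) and psmb4 (-0.065 with the position trend removed). The cause was not tested. Removal of the position trend, of rows not measured in all samples and of the genes that are no subunit were chosen after seeing the data. No paired analysis was possible because all samples belong to 1 group, and exposed and control embryos are already compared inside every value.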
